A study of Caenorhabditis elegans with 2 samples.

Results

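The genes described here are gad-1 and 5 genes of the core Prp19 complex, prp-19, cdc-5L, bcas-2, isy-1 and skp-1, which were chosen by name and are 6 of the 19487 genes in the deposited table of exon and intron reads. All 6 were found, 4 by the symbol printed in the table and 2, bcas-2 and isy-1, by the current name of their gene identifier, and all 6 passed the minimum of 10 combined reads. RNA came from mixed-stage embryos of Caenorhabditis elegans strain BW1943, which carries gad-1(ct226) and dpy-11(e224) on chromosome V, grown at 16 °C or at 25 °C and harvested by bleaching. There was 1 library at each temperature and no other genotype, so both libraries carry both alleles, and what the higher temperature does and what the gad-1 allele does at that temperature cannot be told apart. Exon and intron reads together came to 22016818 at 16 °C and 18175617 at 25 °C.

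The Prp19 complex, also called NTC, enters the spliceosome after the U4 snRNA has left and stays through both steps of intron removal. It steadies the pairing of the U2, U5 and U6 snRNAs around the splice sites, and the yeast and human complexes have also been tied to transcription elongation. Prp19 itself is a ubiquitin ligase that forms the scaffold, Cdc5L is a MYB-related protein that binds it, BCAS2 (Spf27) binds both, Isy1 sits near the catalytic centre, and SKIP, the protein of skp-1, is a long flexible factor that joins many spliceosome parts in human structures. GAD-1, related to human WDR70, has WD repeats and is required when embryos gastrulate, and the series title places it with this complex in splicing and elongation. The comparison asks whether these genes, which encode splicing proteins, themselves carried more intron reads at 25 °C, and whether their exon reads differed.

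The intron-to-exon ratio rose at 25 °C in 5 of the 6 genes and was not called in gad-1. Per gene the 2 libraries were compared by Fisher's exact test, two-sided, on exon and intron reads, with Benjamini-Hochberg adjustment at 0.05 over the 14972 genes with at least 10 combined reads. With no replicates, this test compares the reads of 2 libraries and not the temperatures. Over all of those genes the ratio rose in 28.1% and fell in 0.614%, and among the 6 genes none fell. A high count of rises was common in well-read genes: 59.9% rose in the highest quartile of exon reads, which holds all of the 6 but bcas-2, 35.0% in the second-highest quartile, which holds bcas-2, and 51.1% where at least 20 intron reads were found in both libraries together, which include all 6. The median ratio of the 6 genes was 4.24-fold (log2 2.08), beside 2.09-fold (log2 1.06) over all genes tested.

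The change of a typical gene was therefore used as a second reference, besides no change. The exact 95% interval of the fold lay above the median fold of 2.09 in 4 of the 6 genes, prp-19, cdc-5L, bcas-2 and isy-1. Such an interval was found in 7.49% of all genes tested and in 14.6% of the highest quartile of exon reads. The intervals of gad-1 and skp-1 included 2.09, so these genes were not distinguishable from the typical gene at this depth. In the authors' deposited table, whose adjusted p had a threshold of 0.01, cdc-5L, bcas-2 and isy-1 were past it with a higher ratio, as were 5.55% of all 19487 genes. There prp-19 (adjusted p of 0.0840 in the authors' deposited table) and skp-1 (0.0185 in the authors' deposited table) were not.

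**Figure D1:**
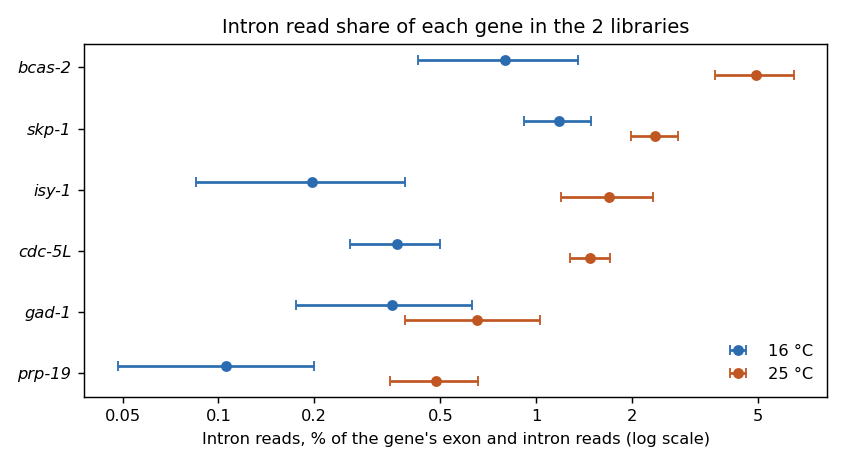
Share of intron reads among all exon and intron reads of each gene (percent, log axis) at 16 °C (blue) and 25 °C (orange), 1 library each; points are the measured shares and bars exact 95% binomial intervals. Intervals of the 2 libraries overlap in gad-1, from 0.386% to 0.627%, and are apart in the other 5 genes, with bcas-2 highest at 4.92% at 25 °C.

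For gad-1 (T05H4.14; chromosome V, 6431333 to 6433496, minus strand, Ensembl WBcel235), the gene that is mutated in the strain, exon reads numbered 3123 at 16 °C and 2748 at 25 °C, and intron reads 11 and 18. Intron reads were 0.351% of the gene's reads at 16 °C, with an exact 95% binomial interval of 0.175 to 0.627, and 0.651% at 25 °C (0.386 to 1.03). The intervals overlap, and the change of the ratio stood near that of the middle gene of the table. Its 1.86-fold ratio (0.830 to 4.36) lay at percentile 43.7 of all genes tested and did not pass the Fisher exact test (adjusted p = 0.307). The gene has 4 introns of 44 to 48 bases, 186 bases in all. With its 16 °C counts and its total at 25 °C as they were, 24 intron reads at 25 °C, a 2.48-fold ratio, would have been needed for a call, so a rise of the typical size was below what this depth could show. Library-scaled exon reads of gad-1 were 1.07-fold higher at 25 °C (1.01 to 1.12), which shows the transcript present at both temperatures and says nothing of the protein.

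The prp-19 transcript (T10F2.4; chromosome III, 5169933 to 5172045, minus strand) had the lowest share of intron reads of the 6 genes in both libraries. It had 8534 exon reads at 16 °C and 8231 at 25 °C, and its intron reads 9 and 40, or 0.105% (0.0482 to 0.2) and 0.484% (0.346 to 0.658) of its reads. The ratio rose 4.61-fold (2.20 to 10.8; Fisher exact test, adjusted p = 4.73e-05), although the gene's 3 introns sum to only 208 bases. Library-scaled exon reads were 1.17-fold higher (1.13 to 1.20), so the higher ratio came with more intron reads and not with fewer exon reads.

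For cdc-5L (D1081.8; chromosome I, 8491291 to 8495833, plus strand), the partner of Prp19 in the scaffold, the change rested on the most intron reads. The counts were 39 at 16 °C and 194 at 25 °C, beside exon counts of 10667 and 12899. The share went from 0.364% (0.259 to 0.498) to 1.48% (1.28 to 1.70), and the ratio rose 4.11-fold (2.90 to 5.97; Fisher exact test, adjusted p = 1.18e-17). Its 7 introns sum to 2051 bases, of which the longest has 1529. Exon reads of cdc-5L also had the highest ratio of the 6 genes, 1.46-fold higher at 25 °C (1.43 to 1.5), and intron reads scaled by library total were 6.03-fold higher (4.25 to 8.73).

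For bcas-2 (T12A2.7; chromosome III, 6244672 to 6245828, minus strand), intron reads numbered 13 and 48 while exon reads went from 1618 to 927. The share of intron reads was 0.797% (0.425 to 1.36) at 16 °C and 4.92% (3.65 to 6.47) at 25 °C, the highest of the 6 genes in the warmer library. The ratio rose 6.44-fold (3.41 to 13; Fisher exact test, adjusted p = 1.68e-09). Both parts of the ratio moved: library-scaled intron reads were 4.47-fold higher (2.39 to 9.0) and exon reads 1.44-fold lower (1.33 to 1.56).

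The largest fold among the 6 genes was that of isy-1 (F53B7.3; chromosome V, 10999663 to 11000699, minus strand). It had 4050 exon reads at 16 °C and 2145 at 25 °C, and 8 and 37 intron reads in 3 introns of 43 to 66 bases. The share went from 0.197% (0.0851 to 0.388) to 1.70% (1.20 to 2.33). The ratio rose 8.73-fold (3.99 to 21.7; Fisher exact test, adjusted p = 3.16e-09), at percentile 88.4 of all genes tested. As in bcas-2, exon reads were lower, by 1.56-fold (1.48 to 1.64), and library-scaled intron reads were 5.6-fold higher (2.57 to 13.9).

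Exon reads of skp-1 (T27F2.1; chromosome V, 11645481 to 11650090, plus strand) numbered 5876 at 16 °C and 5560 at 25 °C, and its intron reads 70 and 135. At 16 °C it had the highest share of intron reads of the 6 genes, 1.18% (0.919 to 1.49), and at 25 °C 2.37% (1.99 to 2.80). The ratio rose 2.04-fold (1.51 to 2.77; Fisher exact test, adjusted p = 1.24e-05), which is the size of the typical gene, at percentile 48.5 of all genes tested. Exon reads were 1.15-fold higher (1.10 to 1.19). With 2869 bases of intron, one of them 1948 long, skp-1 was the gene of the 6 in which the smallest rise, 1.49-fold, could have been called.

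The folds of the 6 genes were compared in all 15 pairs by Zelen's exact test of equal odds ratios, with Benjamini-Hochberg adjustment over the pairs, and 5 pairs differed. The ratio rose more in isy-1 than in skp-1 (4.28 times, 1.82 to 11.2; exact test, adjusted p = 0.00415), more in bcas-2 than in skp-1 (3.16 times, 1.54 to 6.82; 0.00507) and more in cdc-5L than in skp-1 (2.02 times, 1.26 to 3.26; 0.0129). It also rose more in isy-1 than it changed in gad-1 (4.70 times, 1.41 to 15.9; 0.0328), and more in bcas-2 than in gad-1 (3.47 times, 1.16 to 10.2; 0.0461). Thus skp-1 stood below cdc-5L, bcas-2 and isy-1, and gad-1, less surely, stood below bcas-2 and isy-1.

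The other 10 pairs did not pass. The fold of skp-1 was 1.10 times that of gad-1 with an interval of 0.440 to 2.62. For prp-19 and cdc-5L against gad-1 the intervals were 0.768 to 8.04 and 0.866 to 5.40, wide enough to hold both no difference and a large one. The fold of prp-19 was 2.26 times that of skp-1 (1.001 to 5.6; exact test, adjusted p = 0.0978). Among prp-19, cdc-5L, bcas-2 and isy-1 no pair passed, with folds 1.12 to 2.12 times apart. When intron reads alone were compared between genes, without their exon reads, 1 of the 15 pairs passed, cdc-5L against skp-1 (2.58 times; Fisher exact test, adjusted p = 0.000551).

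**Figure D2:**
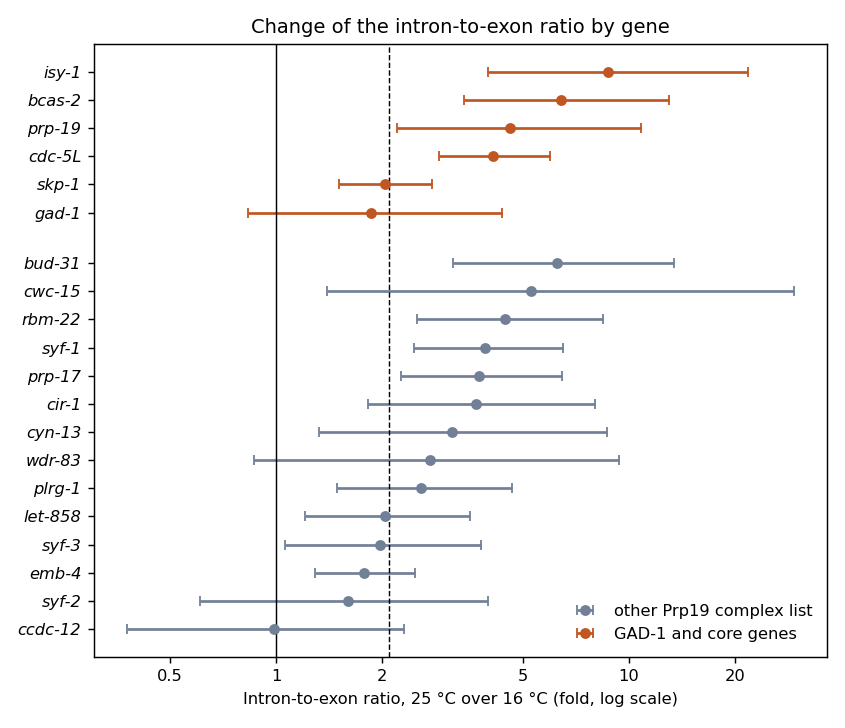
Intron-to-exon ratio at 25 °C over that at 16 °C (fold, log axis) for the 6 genes (orange) and the 14 genes of the other Prp19 complex list (grey); points are ratios of the counts, bars exact 95% intervals, the solid line no change and the dashed line the median gene at 2.09. The intervals of isy-1, bcas-2, prp-19 and cdc-5L lie to the right of the dashed line, and that of gad-1, 0.830 to 4.36, includes both lines.

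The exon and intron parts of the ratio ordered the genes differently. By library-scaled intron reads alone cdc-5L came first (6.03-fold), then isy-1 (5.6), prp-19 (5.38) and bcas-2 (4.47), followed by skp-1 (2.34, 1.74 to 3.16) and gad-1 (1.98, 0.887 to 4.64). The first 4 have overlapping intervals. By exon reads, 4 genes were higher at 25 °C and 2, bcas-2 and isy-1, were lower, and all 6 lay within 2-fold. The highest quartile of exon reads holds 5 of the 6, and there 1986 of 3743 genes were higher and 3365 lay within 2-fold. Over all 14972 genes tested 8997 lay within 2-fold. Of the 14313 genes that reached 10 exon reads in either library, 32.8% were higher. That share depends on the scaling: with the median exon ratio in place of the library total every gene moves up by 0.36 on the log2 scale and 47.7% are higher. Under that scaling the same 4 genes were higher and the same 2 lower, with exon ratios of 1.37 for gad-1, 1.5 for prp-19, 1.88 for cdc-5L, 1.47 for skp-1, 0.891 for bcas-2 and 0.824 for isy-1.

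**Figure D3:**
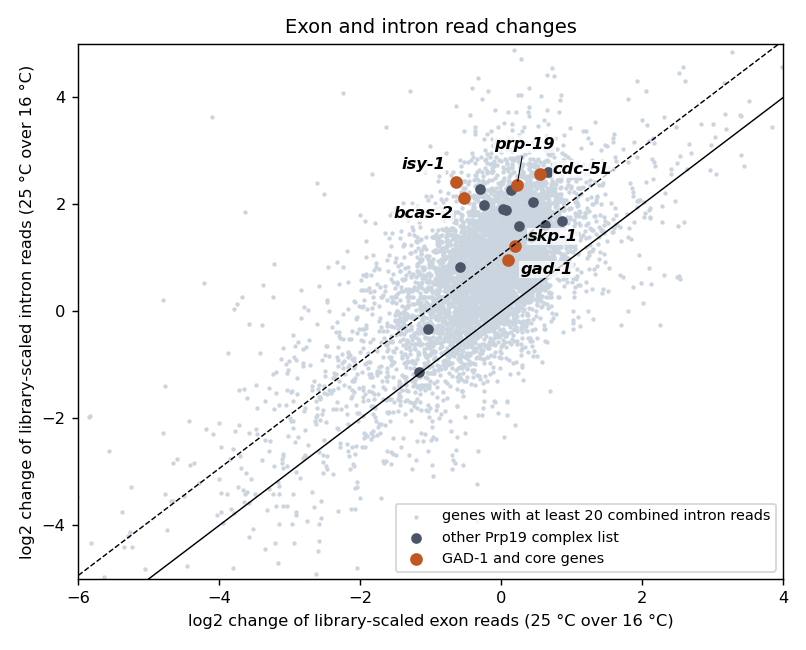
Change from 16 °C to 25 °C of library-scaled exon reads (x axis, log2) and intron reads (y axis, log2), 0.5 reads added, for the 6 genes (orange), the other Prp19 complex list (dark) and 6984 genes with a sum of 20 or more intron reads (grey, 70 of them outside the axes). On the solid line the ratio is unchanged, and on the dashed line it changes as in the median gene. isy-1 and bcas-2 lie left of 0 (exon log2 -0.64 and -0.53), and skp-1 and gad-1 lie near the dashed line.

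Levels were compared between genes per length, as exon reads per kb of exon per 1000000 reads of the library. At 16 °C the order was isy-1 (204, exact Poisson 95% interval 198 to 211), prp-19 (203, 199 to 208), cdc-5L (193, 189 to 196), skp-1 (123, 120 to 127), gad-1 (71.6, 69.1 to 74.2) and bcas-2 (53.1, 50.5 to 55.7). The levels of isy-1 and prp-19 did not differ beyond counting error. At 25 °C the order was cdc-5L (282, 277 to 287), prp-19 (238, 233 to 243), skp-1 (141, 138 to 145), isy-1 (131, 126 to 137), gad-1 (76.4, 73.5 to 79.3) and bcas-2 (36.8, 34.5 to 39.3). Hence isy-1 went from the highest level to a place below skp-1, while gad-1 and bcas-2 were lowest in both libraries. There was no second library to give a spread between samples.

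These levels depend on the exon lengths of the deposited table. For bcas-2 the table gives 1385 bases of exon and the annotation 884, and for skp-1 2162 and 1741, whereas the other 4 genes differ by at most 22 bases. With the annotated lengths, an alternative chosen after seeing the data, bcas-2 was at 83.1 at 16 °C and 57.7 at 25 °C, above gad-1 (71.7) in the cooler library and below it (76.4) in the warmer one. The level of skp-1 became 153 and 176. Summed intron lengths were equal in the table and the annotation for all 6 genes, and in ratios between the 2 libraries the length cancels. Where the extra exon bases of bcas-2 and skp-1 lie is not known here. Any reads in them are part of the exon counts and so of the ratios.

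**Figure D4:**
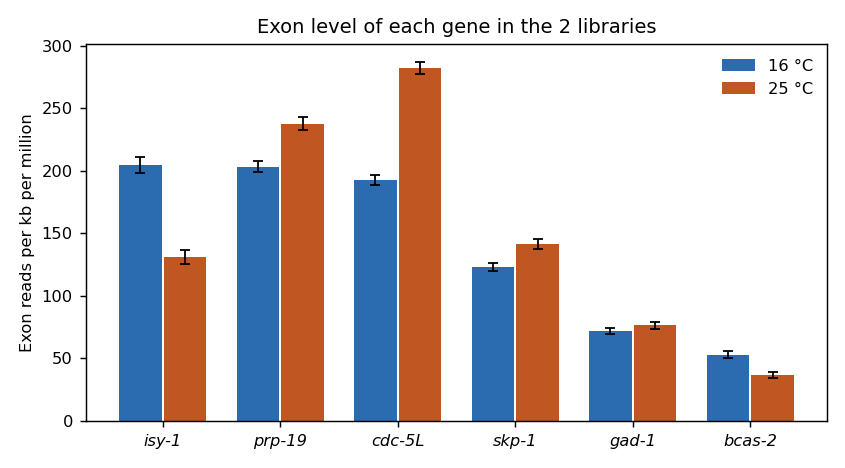
Exon reads per kb of exon per 1000000 reads for each gene at 16 °C (blue) and 25 °C (orange), 1 library each, with exon lengths from the deposited table; bars are the levels and error bars exact 95% Poisson intervals of the read counts. cdc-5L rises from 193 to 282 and isy-1 drops from 204 to 131, while gad-1 is at 71.6 and 76.4.

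Intron coverage was also set against exon coverage per kb. At 16 °C intron coverage was 0.448% of exon coverage in cdc-5L, 0.898% in skp-1, 0.966% in prp-19, 1.14% in isy-1, 3.75% in gad-1 and 4.08% in bcas-2. At 25 °C it was 1.83% in skp-1, 1.84% in cdc-5L, 4.45% in prp-19, 6.97% in gad-1, 9.95% in isy-1 and 26.3% in bcas-2. In both libraries the 4 genes with the least intron sequence, 156 to 273 bases, lay above cdc-5L and skp-1, though prp-19 was close to skp-1 at 16 °C. On this scale gad-1, low as a share of its reads, came next after bcas-2 at 16 °C. With the annotated exon lengths bcas-2 stood at 2.60% and 16.8%, below gad-1 at 16 °C (3.75%). The introns have 44 to 48 bases in gad-1, 43 to 66 in isy-1, 49 to 96 in prp-19 and 51 to 97 in bcas-2, and a sequencing read can be longer. How a read that covers both an exon and an intron was counted is not given in the sources used here. This limit also bears on the intron counts and folds above. These values therefore describe coverage and are no estimate of unspliced molecules.

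In a list of other Prp19 complex and associated proteins the ratio rose in 10 of 14 genes, fell in 0 and was not called in 4, beside rises in 28.1% of all genes tested and in 59.9% of the highest quartile of exon reads, which holds 13 of the 14. The list had 15 names, of which spf-27 is another name for BCAS2 and is counted above as bcas-2, and the 14 others were in the table and tested. The list median was 2.83-fold (log2 1.5), beside 2.09-fold over all genes tested. The interval lay above 2.09 in 4 of the 14, against 7.49% of all genes tested and 14.6% of that quartile. These were bud-31, whose human protein lies near the catalytic RNA (6.27-fold, 3.18 to 13.5, from 11 to 46 intron reads), rbm-22, an RNA-binding protein of that centre (4.47-fold, 2.50 to 8.48), syf-1, a helical-repeat scaffold (3.92-fold, 2.46 to 6.51), and prp-17, a WD-repeat factor of the second splicing step (3.76-fold, 2.27 to 6.49).

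In 6 further genes of that list the ratio rose with intervals that included 2.09. They were cwc-15 (5.27-fold, 1.39 to 29.4, on 3 and 11 intron reads in 47 bases of intron), cir-1 (3.68-fold), the cyclophilin cyn-13 (3.16-fold), plrg-1, a WD-repeat partner of Cdc5L (2.58-fold, 1.48 to 4.65), let-858, the worm CWC22 (2.03-fold), and emb-4, the helicase Aquarius (1.78-fold, 1.29 to 2.48). The 4 genes not called were wdr-83 (2.74-fold, 0.863 to 9.39), syf-3, the crooked-neck protein (1.97-fold, 1.06 to 3.82), syf-2 (1.60-fold, 0.610 to 3.98) and ccdc-12 (0.986-fold, 0.378 to 2.31). In ccdc-12 library-scaled exon and intron reads were lower by about the same factor, with ratios of 0.447 and 0.440, and in syf-2 the exon ratio was 0.486 and the intron ratio 0.779. Exon reads scaled by library total were higher at 25 °C in 9 of the 14 genes, the largest ratio being 1.82 in emb-4. In the highest quartile of exon reads, which holds 13 of the 14, 1986 of 3743 genes were higher, and such counts depend on the scaling.

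Among 18 proteins of the U2 and U5 snRNPs, splicing helicases and splice-site binding factors, with which the Prp19 complex works, the ratio rose in 11, fell in 0 and was not called in 7, with a median of 2.25-fold. All 18 lie in the highest quartile of exon reads, where 59.9% of genes rose, and 11 of 18 (61.1%) is near that share. The smallest p-values were those of prp-6, a U5 protein (2.88-fold, 2.41 to 3.47, from 155 to 620 intron reads), prp-21, a U2 protein (3.76-fold, 2.76 to 5.20), sftb-1, the U2 protein SF3B1 (6.23-fold, 3.28 to 13), and sfa-1, the branch-point protein SF1 (1.69-fold, 1.44 to 1.98). The interval lay above 2.09 in 4 of the 18 (14.6% in that quartile), prp-6, prp-21, sftb-1 and eftu-2, and below it in sfa-1, uaf-2 and mog-4, where eftu-2, uaf-2 and mog-4 are named after their values were seen. In neither the 6 genes nor the 14 other Prp19 complex and associated genes was an interval wholly below 2.09. Such an interval was found in 1710 of the 14972 genes tested and in 684 of 3743 in the highest quartile of exon reads. Many genes of these lists have few intron reads and wide intervals, so its absence there does not set them apart. Whether the lists differ from each other was not tested.

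The 3 genes most like gad-1 were madf-3, toe-4 and npp-19, by the distance over 4 log2 values, exon and intron reads per kb per 1000000 reads in each library, among 6983 genes with a sum of 20 or more intron reads. Their distances were 0.242, 0.303 and 0.312, and the comparison spans 2 libraries. The nearest, madf-3, had exon levels of 75.8 and 87.0 beside 71.6 and 76.4 in gad-1. Its ratio rose 1.66-fold (Fisher exact test, adjusted p = 0.000330) on 118 and 185 intron reads in 1779 bases of intron. The ratio rose 1.80-fold in toe-4 and 2.64-fold in npp-19, a nuclear pore protein with 22 and 46 intron reads. Since these genes were chosen on the values that make up the ratio, folds near that of gad-1 follow from the choice.

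The embryos of the 2 libraries also differed in other transcripts, and the part of this in the values above was not tested. Of 8 markers of pharynx, muscle and gut 7 were lower at 25 °C by exon reads scaled by library total, with a median exon log2 of -3.08. The change was small in unc-54 (-0.11), myo-3 (0.31) and unc-15 (-0.47), and in the others it ranged from -3.05 (vha-6) to -4.94 (tnt-4). The summed level of the 8, mostly of the muscle myosins unc-54 and myo-3, was 2367 per 1000000 reads at 16 °C and 1956 at 25 °C. The early embryo markers in the table numbered 10, of which 3 were higher and 7 lower, with a median exon log2 of -0.72, and summed to 576 and 589 per 1000000 reads, mostly of skn-1 and mex-5. Among them the exon log2 change was -2.002 for end-1, -1.75 for end-3 and -2.02 for sdz-38. The 3 that were higher were skn-1 (0.44), tbx-37 (0.41) and pie-1 (0.17), and mex-5 was near no change (-0.03). Adult yolk and cuticle markers summed to 1.18 and 0.825 per 1000000, with col-19 at 0 reads at 16 °C. By annotation, bcas-2 overlaps a piRNA gene over 21 exonic bases, isy-1 the gene F53B7.7 over 9 and skp-1 the gene zip-10 over 12, all in exons, and gad-1, prp-19 and cdc-5L overlap no other annotated gene. Overlaps were sought within the annotated spans only, which may not hold all the exon bases counted for bcas-2 and skp-1.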

How the data were processed

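RNA libraries of mixed-stage embryos, 1 per temperature, were made with a stranded mRNA kit, per the labels' protocols, and Trimmomatic, TopHat2 and HTSeq are named in the submitters' processing notes. The sources used here do not give versions, genome build, annotation or use of strand. The authors deposited whole-number counts of exon and intron reads per gene, not normalized, with summed exon and intron lengths, a fold (the ratio of intron-to-exon ratios, 25 °C over 16 °C), a p-value and an adjusted p-value. The deposited fold was recomputed from the counts within 0.01% in 10860 of 10860 genes with a finite value above 0. The deposited p-value equalled the Fisher exact test within 2% in 19487 genes, and the deposited adjusted p its Bonferroni adjustment.

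Columns marked Con and Exp were matched to the libraries by the same marks in the labels. Exon reads came to 21702143 at 16 °C and 17725845 at 25 °C, intron reads to 314675 and 449772. Fisher tests were run in R 4.3.3 over all genes with at least 10 combined reads, and Zelen's exact test and exact intervals in Python with SciPy 1.17.1. Folds are ratios of the counts, and medians and percentiles use 0.5 added reads. Intervals and tests account for counting error alone and treat each read as independent. Where PCR has copied molecules, the intervals are too narrow and the p-values too small. Both tests were also run on simulated reads drawn independently. The simulation had no PCR copies and no spread between libraries, so it cannot show how the tests behave with either. A model with replicate spread could not be fitted. Gene positions come from Ensembl release 115 (WBcel235), which held 19298 of the identifiers and may differ from the annotation used by the authors.

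The members and lists were chosen with earlier results of these data known. Named genes were the 6 members, every gene of the other Prp19 complex list, the 4 with the smallest p of the U2, U5 and helicase list, and the 3 most like gad-1. Alternatives were the adjustment, read minimum, reference of the intron reads, scaling (including edgeR 4.0.16 TMM factors), pseudocount and typical fold.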

Additional observations from a re-analysis of the deposited data

How the results depend on the processing

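With a Bonferroni adjustment at 0.01 over the whole table, the rule of the authors' deposited table, the ratio rose in 3 of the 6 genes in place of 5, since prp-19 and skp-1 no longer passed, and in 4 genes of the other Prp19 complex list in place of 10. With no read minimum, with 50 combined reads and with 20 combined intron reads, 5 of the 6 and 10 of the other 14 rose. With intron reads set against the library total, 5 of the 6 and 11 of the 14 rose. gad-1 was not called under any of these, with adjusted p from 0.193 to 1. The 4 genes with intervals above the typical fold stayed above it at typical folds of 1.96 (at least 20 intron reads), 2.08 (pseudocount of 1) and 1.75 (summed reads). Of the 15 pairs, 3 passed with Bonferroni adjustment, those of isy-1, bcas-2 and cdc-5L against skp-1, and 1 passed with intron reads alone, an alternative chosen after seeing the data. The pairs that no longer passed with intron reads alone included all with gad-1. The list medians were 2.05 and 2.12 for the 6 genes and 1.45 and 1.55 for the other 14 on the log2 scale, with a pseudocount of 1 and with counts under 3 set at 3. Exon ratios with TMM factors ranged from 0.787 in isy-1 to 1.80 in cdc-5L, and no scaling changed which genes were higher. The few intron reads of gad-1, prp-19, bcas-2 and isy-1, 8 to 13 at 16 °C, limit the precision of their folds. No paired analysis was possible because there is 1 library per temperature and the labels give no replicate numbers.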
